A study of Mus musculus with 13 samples.

Results

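The OPC identity genes are 10 protein-coding genes commonly used to recognise oligodendrocyte precursor cells (OPCs): Pdgfra, Cspg4, Ptprz1, Lhfpl3, Vcan, Bcan, Pcdh15, Cspg5, Tnr and Cacng4. They were chosen by name, and all 10 were found among the 21911 protein-coding genes of the annotation. For each gene, the listed peaks of H3K4me3 and H3K27me3 were taken within 2 kb of any annotated transcription start site (TSS) and in the gene, and the listed OLIG2 peaks in the gene and within 50 kb of it. H3K4me3 is a histone mark of active promoters, H3K27me3 is the mark of Polycomb repression, and OLIG2 is a basic helix-loop-helix transcription factor of the oligodendrocyte lineage.

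The lineage was sampled at 3 stages by ChIP-Seq, in which DNA bound by a protein or mark is precipitated and sequenced. Neural stem cells (NSCs) came from the cortex of E14.5 CD-1 embryos and were grown in culture with EGF and FGF, although the sample labels give C57BL/6 as their strain. OPCs and newly formed oligodendrocytes (NFOs) were taken at postnatal day 7 from the brain of C57BL/6 mice by immunopanning on antibody-coated dishes, after microglia and endothelial cells had been removed with the lectin BSL-1. OPCs were bound with an antibody against PDGFRα, the product of Pdgfra, so the choice of cells used a protein encoded by a gene of the set, and NFOs were bound with an antibody against GalC. H3K4me3 and H3K27me3 have 1 library in each of the 3 stages, and OLIG2 has 1 library in OPCs and 1 in NFOs. OLIG2 in NSCs was not analysed here. An OLIG2 and an IgG RIP-Seq library, which list RNA sites recovered with the antibody, are labelled NFO, while the study's methods describe NSCs. With 1 library per group no difference between stages could be tested, the depth of the libraries is unknown, and all comparisons below are descriptions of these libraries.

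The 6 histone lists hold 12688 to 36069 peaks, and the OLIG2 lists 7384 in OPCs and 16911 in NFOs. The antibody field of the 6 histone samples names the other mark than their titles. By the titles, H3K4me3 peaks lay at 5 of 5 housekeeping TSSs in every stage. H3K27me3 peaks lay at 5 of 5 developmental genes known as Polycomb targets in every stage, and the titles were used. Of these 5, Hoxd11, Hoxd12 and Hoxd13 shared a 74199-bp peak in NSCs, so the 5 are not separate places. The NFO library listed H3K4me3 at the oligodendrocyte marker gene Cnp and not at Mbp, Mog, Mag, Myrf, Enpp6 or Bcas1. In both NSCs and OPCs it was listed at Mbp, Cnp, Myrf and Bcas1. H3K4me3 at the 5 microglial markers was listed for 0 genes in NSCs, 1 in OPCs (Csf1r) and 0 in NFOs. At the 4 endothelial markers it was listed for 2 in each stage, at the 5 neuronal markers for 4, 4 and 3, and at the 5 astrocyte markers for 2, 1 and 1. Over all protein-coding genes the shares were 64.3%, 60.8% and 43.6%. Of the endothelial markers with H3K4me3, Flt1 also had H3K27me3 near a TSS in every stage and Kdr in OPCs and NFOs. Of the neuronal ones with H3K4me3, Rbfox3 also had H3K27me3 in NSCs and OPCs and Syt1 in NFOs. What part the marks at these marker genes had in the results at the OPC identity genes was not tested. By the peak names NSC reads were single-end, while those of OPCs and NFOs were paired-end, so widths are not on 1 scale between NSCs and the other stages.

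OPCs divide in response to PDGF through the receptor PDGFRα and carry the chondroitin sulfate proteoglycan NG2, encoded by Cspg4. Their surface and surrounding matrix hold other proteoglycans and matrix proteins, and they receive synaptic input through AMPA receptors. As OPCs differentiate into oligodendrocytes they lose PDGFRα and NG2. Broad H3K4me3 domains are known from genes that define a cell type. OLIG2 binds E-boxes, the hexamer CANNTG, as other factors of its class do.

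In OPCs, all 10 genes had an H3K4me3 peak within 2 kb of a TSS, and every one of the 10 had a widest peak broader than the median of all marked genes. H3K4me3 was listed near a TSS of 10 of 10 genes in NSCs (64.3% of all protein-coding genes), 10 of 10 in OPCs (60.8%) and 9 of 10 in NFOs (43.6%). It was present in all 3 stages at 9 of the 10 genes (41.8% of all). The remaining gene, Cspg4, had the mark near a TSS in OPCs and not in NFOs, a pattern of 1 of 10 genes beside 18.6% of all. Counted over the whole gene, H3K4me3 was listed at 10 genes in NSCs (67.1% of all), 10 in OPCs (62.5%) and 10 in NFOs (47.9%). With a fold enrichment above 5, the genes marked near a TSS in NFOs were 5.

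The peaks of the set were wide beside those of other genes in OPCs and NFOs, and less so in NSCs. The median width of the widest H3K4me3 peak near a TSS was 3276.5 bp over the 10 genes in OPCs and 1369 bp over all genes with a peak. In NSCs the medians were 2276.5 and 2161 bp, and in NFOs 1632 bp over 9 genes and 579 bp over all. The median gene of the set had a wider peak in OPCs than 95.6% of the marked genes. The same figure was 92.8% in NFOs and 54.5% in NSCs. Wider than the median of all genes were 10 of 10 genes in OPCs, 8 of 9 in NFOs and 6 of 10 in NSCs. Since all marked genes together had narrower peaks in NFOs, a change of width and a shallower library cannot be told apart. The fold enrichment over input, the height measure of the peak caller, stood closer to the rest. Its median was 7.89 over the set and 8.44 over all genes in NSCs, 7.37 and 6.50 in OPCs, and 5.79 and 5.02 in NFOs.

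**Figure D1:**
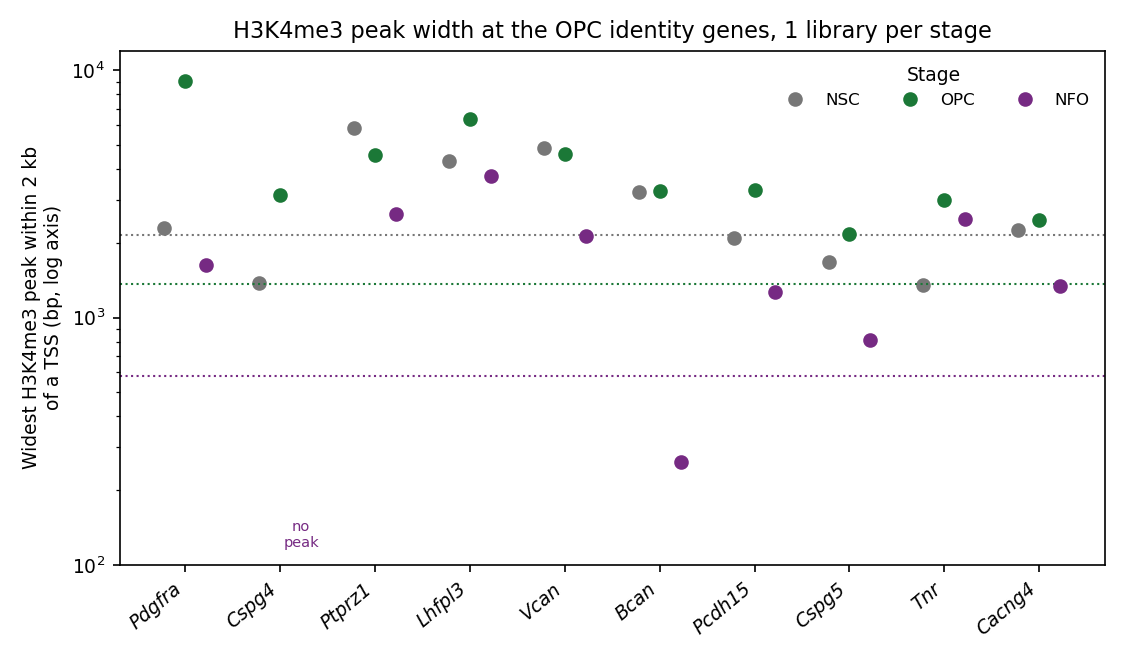
Width of the widest H3K4me3 peak within 2 kb of a TSS, in bp on a log axis, for each of the 10 genes in NSCs, OPCs and NFOs, 1 library each. Dotted lines give the median of all protein-coding genes with a peak in the same stage (2161, 1369 and 579 bp). All 10 OPC points lie above the OPC line, Cspg4 has no NFO peak and Bcan lies below the line in NFOs.

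Pdgfra (chr5:75152292-75198215, plus strand, 9 annotated TSSs) encodes the receptor tyrosine kinase for PDGF. In OPCs it carried 1 H3K4me3 peak of 9047 bp with a fold enrichment of 8.63, wider than the widest peak of 99.9% of the marked genes. This peak ran from 903 bp before to 8143 bp after the outermost TSS. In NSCs the gene had a peak of 854 bp (fold 3.91) and one of 2294 bp (fold 8.41), and the first began 373 bp after the outermost TSS. In NFOs the OPC interval held 3 separate peaks of 1632, 1555 and 589 bp with folds of 8.23, 4.60 and 5.08. The mark therefore covered the outermost TSS in OPCs and NFOs and not in NSCs. Within 2 kb of the TSSs it covered 8047 bp in OPCs, beside 3148 bp in NSCs and 3776 bp in NFOs. No H3K27me3 peak was listed in Pdgfra or near its TSSs at any stage. The RefSeq promoter of Pdgfra is shown because H3K4me3 covered its start in OPCs and NFOs and not in NSCs. It spans 250 bases before to 50 after the start (GRCm38.p6, chr5:75152001-75152300, plus strand), and capitals mark the matches to CANNTG.
Pdgfra promoter: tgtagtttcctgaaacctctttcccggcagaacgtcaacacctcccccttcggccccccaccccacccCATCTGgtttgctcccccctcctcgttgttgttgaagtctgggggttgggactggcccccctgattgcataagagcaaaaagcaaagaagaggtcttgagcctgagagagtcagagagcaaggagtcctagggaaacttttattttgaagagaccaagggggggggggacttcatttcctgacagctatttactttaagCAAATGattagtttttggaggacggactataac

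Promoter sequences were matched for 8 of the 10 genes, and Cspg5 and Cacng4 had no entry. CANNTG, searched over both strands, occurred in 4 of the 8 promoters (50%) and in 68.7% of 20150 promoters of protein-coding genes. Their median GC content was 60.5%, beside 57% over all. H3K4me3 lay over the RefSeq start of Ptprz1 and Lhfpl3 in all 3 stages. It lay over the starts of Cspg4, Vcan, Bcan and Pcdh15 in NSCs and OPCs and not in NFOs. The start of Tnr was covered in NFOs alone, since in OPCs the peak began 64 bp and in NSCs 12 bp after it.

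Cspg4 (chr9:56865033-56899870, plus strand) encodes the NG2 proteoglycan. Its TSS peak was 1382 bp wide in NSCs (fold 4.57) and 3141 bp in OPCs (fold 5.78). In NFOs no peak was listed within 2 kb of its TSSs. The only NFO peak of the gene was 186 bp wide, with a fold enrichment of 3.62, and lay 4.5 kb into the gene. A 222-bp OPC peak (fold 4.92) began at the same base. H3K27me3 was not listed in Cspg4 at any stage.

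For the other genes the widths of the widest TSS peak are given in the order NSC, OPC and NFO. Among the chondroitin sulfate proteoglycans of the matrix, Vcan, which encodes versican, had 4854, 4582 and 2134 bp. Bcan, which encodes brevican, had 3229, 3263 and 260 bp, and its NFO peak lay 1.6 kb inside the outermost TSS. Bcan had the largest ratio of OPC to NFO coverage of the set, 3.65 on the log2 scale. For Cspg5, which encodes neuroglycan C, the widths were 1680, 2183 and 811 bp. NSCs and OPCs listed 2 peaks near the TSSs of Cspg5, and NFOs listed only the downstream one. This downstream peak began 3.84 kb after the outermost TSS in NFOs, past the last annotated TSS of the gene, and covered none of them. Tnr encodes tenascin-R, a matrix glycoprotein that binds brevican and versican. Its peak was 1360, 2992 and 2507 bp wide, and it was the gene of the set with slightly more covered bases in NFOs than in OPCs (-0.06 on the log2 scale).

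Ptprz1 encodes a receptor-type tyrosine phosphatase that carries chondroitin sulfate. Its peak was wide in every stage, at 5821, 4539 and 2636 bp, and its NFO fold of 10.5 was the highest of the set there. Lhfpl3, a tetraspan membrane protein of the LHFPL family, had 4294, 6332 and 3734 bp. Its peak was wider than that of 99.7% of marked genes in both OPCs and NFOs. Pcdh15 encodes a protocadherin known from the tip links of inner ear hair cells, and 2 of its promoters, the second 722 kb inside the gene, were marked in every stage. Its widest peak had 2092 bp in NSCs, at the first promoter, and 3290 and 1270 bp at the second in OPCs and NFOs. At the second promoter the NSC peak had 1018 bp, and at the first the OPC and NFO peaks had 3021 and 435 bp. Cacng4 encodes an auxiliary subunit of AMPA receptors, and its peak was 2259, 2474 and 1346 bp wide.

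OPC and NFO lists, both paired-end, were set side by side by the bases that H3K4me3 covered within 2 kb of a TSS. Of the 9 genes marked in both, 8 had more covered bases in OPCs, with a median log2 ratio of 1.01. Over the 9239 protein-coding genes marked in both, 93.1% had more in OPCs and the median log2 ratio was 1.26. The median ratio of the set thus lay below that of all genes, with Bcan (98.9% of genes had a lower ratio) and Cspg5 (85.5%) at the upper end and Tnr (5.15%) and Ptprz1 (11.1%) at the lower end.

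H3K27me3 was listed at few promoters of the set. A peak within 2 kb of a TSS was listed for 2 genes in NSCs, Pcdh15 and Vcan (15.1% of all genes), 0 genes in OPCs (16.4% of all) and 0 in NFOs (9.58% of all). The set's 2 of 10 in NSCs stands beside about the same share of all genes. Over the whole gene, 5 had a peak in NSCs (33.7% of all), namely Tnr, Lhfpl3, Cspg5, Pcdh15 and Vcan, 1 in OPCs (Cacng4, 24.7% of all) and 1 in NFOs (Pcdh15, 13.2% of all). The OPC peak in Cacng4 was 171 bp wide, and the NFO peak in Pcdh15 was 234 bp. Overlapping H3K4me3 and H3K27me3 peaks near a TSS, a bivalent promoter, were listed for the same Pcdh15 and Vcan in NSCs (2 of 10, 8.58% of all). No gene of the set had one in OPCs (5.45% of all) or NFOs (2.91% of all), and with a fold above 5 none had one in NSCs.

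Many NSC H3K27me3 peaks were narrow, in the set as in the whole list. Of 26 in the 5 genes, 17 were under 400 bp, beside 59.9% of all listed NSC H3K27me3 peaks, and the widths in the set ran from 274 to 2161 bp. The bivalent call of Pcdh15 rested on a 299-bp peak (fold 3.85), and that of Vcan on a 346-bp peak (fold 4.41) that overlapped a 340-bp H3K4me3 peak by 233 bp, upstream of the 4854-bp domain at the TSS. Of the 17 narrow peaks, 13 held a run of at least 12 A or 12 T in the reference sequence. Over all NSC H3K27me3 peaks under 400 bp the share was 88.6%, and in windows of the same width shifted by 2 kb to either side it was 4.0%. In OPCs and NFOs the share of narrow H3K27me3 peaks with such a run was 6.64% and 2.49%. Of the NSC H3K4me3 peaks under 400 bp 73.5% held one, 3 of 6 in the set. The Vcan peak held a run of 17 and the Pcdh15 peak none over 7. Without narrow NSC peaks that held a run, 1 gene, Pcdh15, kept H3K27me3 near a TSS (9.92% of all genes), and 4 genes kept it in the gene (22.7% of all). The part of the runs in the peak calls was not tested.

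OLIG2 peaks were listed in or around most genes of the set. In OPCs 8 of 10 genes had an OLIG2 peak in the gene or within 50 kb (42.4% of all protein-coding genes), and Bcan and Cacng4 had none. In NFOs 10 of 10 had one (65.1% of all). Within the gene itself, 8 genes had a peak in OPCs (13.8% of all) and 7 in NFOs (23.9% of all). With the study's filter, an FDR under 0.05 and a fold over 5, 8 genes in OPCs and 8 in NFOs kept a peak within 50 kb. Within the gene, 7 kept one in OPCs and 5 in NFOs. The shares of all genes are for all listed peaks. The genes of the set are long, with 4 of them over 100 kb, and long genes hold more peaks. All 4 of these had an OLIG2 peak in the gene in both stages, beside 46.8% in OPCs and 72.1% in NFOs of all genes of at least 100 kb. The only NFO peak in Ptprz1 (fold 4.18) missed the study's filter. Lhfpl3, Tnr and Pcdh15 are longer than 99.1%, 98.4% and 99.9% of coding genes, so the genes of at least 100 kb do not match them in length.

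The 8 genes had 18 peaks in OPCs, 12 in introns, 1 upstream and 5 downstream. In NFOs the 10 genes had 35 peaks, 19 in introns, 1 in an exon, 6 upstream and 9 downstream. None of them had its summit within 2 kb of a TSS of its own gene. Within 2 kb of any protein-coding TSS, neighbours included, were 1 of 18 in OPCs and 2 of 35 in NFOs, beside 17.1% and 12.2% of all OLIG2 peaks. The peaks numbered 4.58 per Mb in OPCs and 8.91 per Mb in NFOs, beside 2.71 and 6.20 per Mb over the chromosomes. Their median fold enrichment was 7.97 in OPCs and 8.0 in NFOs, beside 8.03 and 8.12 over all listed peaks. The study's own filter, an FDR under 0.05 and a fold over 5, was met by 13 of 18 peaks in OPCs and 26 of 35 in NFOs, beside 88.9% and 83.2% of all listed peaks. A fold above 10 left 4 peaks at 3 genes and 12 peaks at 6 genes.

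**Figure D2:**
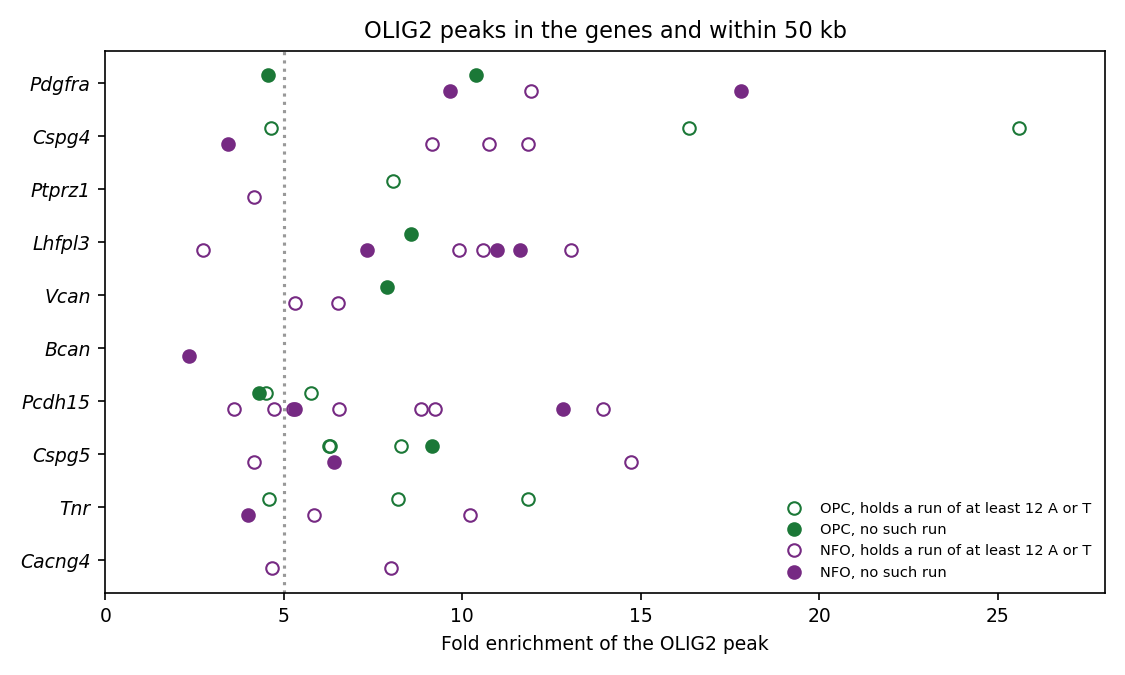
Fold enrichment of each OLIG2 peak in the 10 genes or within 50 kb, OPCs in green and NFOs in purple, 1 library each; open points hold a run of at least 12 A or 12 T and the dotted line is a fold of 5. The highest OPC peak is in Cspg4 (25.6) and the highest NFO peak lies downstream of Pdgfra (17.8).

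In 3 places an OPC and an NFO peak overlapped. They were 16.7% of the OPC peaks of the set (14.3% over all OPC peaks) and 8.57% of the NFO peaks (6.26% over all). The first lay 25.7 kb past the end of Pdgfra, with its summit 71.7 kb from the outermost TSS, and had a fold enrichment of 10.4 in OPCs and 17.8 in NFOs. The second lay in an intron of Cspg4, 16.2 kb from the TSS, with folds of 25.6 in OPCs and 11.8 in NFOs. The third lay downstream of Cspg5, with folds of 8.28 and 14.7. The sequences of the first and second are given because both OLIG2 libraries list these places. The OPC intervals on GRCm38, plus strand, were chr5:75223910-75224139 and chr9:56881098-56881327, and capitals mark CANNTG.
Pdgfra, downstream: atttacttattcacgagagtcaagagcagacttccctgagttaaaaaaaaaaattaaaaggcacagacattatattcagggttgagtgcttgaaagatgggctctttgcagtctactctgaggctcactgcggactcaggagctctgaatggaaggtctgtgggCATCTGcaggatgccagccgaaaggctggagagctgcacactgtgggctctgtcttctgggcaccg
Cspg4, intron: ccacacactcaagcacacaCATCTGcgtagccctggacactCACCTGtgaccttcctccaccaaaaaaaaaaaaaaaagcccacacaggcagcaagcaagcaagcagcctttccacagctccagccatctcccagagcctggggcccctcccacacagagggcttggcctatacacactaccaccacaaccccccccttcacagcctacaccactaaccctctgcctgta

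The Pdgfra place held 1 E-box and the Cspg4 place 2. The match in Pdgfra reads CATCTG, the reverse complement of CAGATG. The longest runs of a single A or T were 11 bases at Pdgfra and 16 at Cspg4. Of the bases, 13.9% at Pdgfra and 35.2% at Cspg4 are marked as repeats in the reference, beside a median of 28.7% over all OPC peaks.

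**Figure D3:**
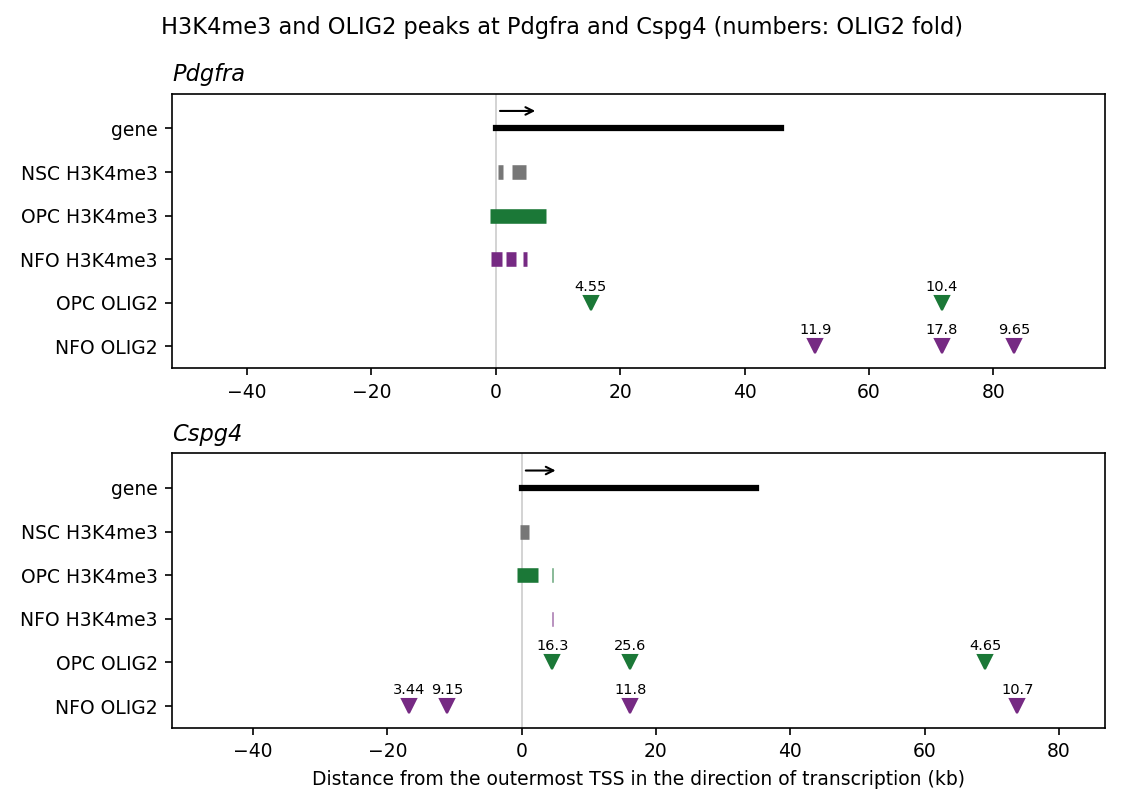
Positions of H3K4me3 peaks (bars) and OLIG2 peaks (triangles, with their fold enrichment) at Pdgfra and Cspg4, in kb from the outermost TSS along the direction of transcription, 1 library per row. The OPC bar at Pdgfra is 9047 bp wide, and the OLIG2 triangles at 71.7 kb in Pdgfra and 16.2 kb in Cspg4 stand in both OPCs and NFOs.

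At Pdgfra the OPC list held a further peak in an intron 15.3 kb from the outermost TSS, with a fold of 4.55, under the filter of the study. NFOs listed no OLIG2 peak in Pdgfra itself. Their other peaks there lay 5.35 kb (fold 11.9) and 37.4 kb (fold 9.65) past the end of the gene. At Cspg4, OPCs had a peak 4.6 kb into the gene with a fold of 16.3, and one 34.1 kb downstream with 4.65. NFOs had peaks 16.7 and 11.0 kb upstream (3.44 and 9.15) and 38.9 kb downstream (10.7). Cspg4 thus had the highest fold in OPCs and Pdgfra in NFOs.

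Cspg5 had 4 OPC peaks, with folds of 6.27 to 9.15, and 1 of them lay in the gene. The summit of another lay 87 bp from the TSS of its neighbour Elp6. Its 3 NFO peaks had folds of 4.16 to 14.7, all downstream. Tnr had 3 peaks in OPCs (4.58 to 11.8) and 3 in NFOs (4.0 to 10.2), none at the same place. Lhfpl3 had 1 peak in OPCs (8.56) and 7 in NFOs (2.74 to 13.0). Pcdh15, the longest of the genes at 1550396 bp, had 3 in OPCs (4.30 to 5.75) and 9 in NFOs (3.59 to 13.9). Ptprz1 had 1 intronic peak in OPCs (8.06) and another in NFOs (4.18). Vcan had 1 in OPCs (7.88) and 2 in NFOs (6.52 and 5.30). Cacng4 had 2 NFO peaks outside the gene (8.0 and 4.68), and the only peak at Bcan was an exonic NFO peak with a fold of 2.35, under the filter.

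Few of these peaks lay on H3K4me3 of the same stage. In OPCs 3 of 18 did, beside 12.6% of all OPC OLIG2 peaks. The Vcan peak, 4.4 kb into the gene, overlapped the inner edge of the 4582-bp domain. The Cspg4 peak 4.6 kb into the gene overlapped the 222-bp H3K4me3 peak, and the Ptprz1 peak overlapped an intronic one of 202 bp, whose fold of 3.35 missed the study's filter for histone marks. In NFOs 2 of 35 did, beside 8.23% of all. These were the Lhfpl3 peak with a fold of 2.74, on a 208-bp H3K4me3 peak whose fold of 2.12 also missed that filter, and the peak downstream of Cspg4, 1393 bp from the TSS of Imp3, on a 929-bp peak. None of the 18 or 35 lay on H3K27me3 of its own stage, beside 10.5% and 2.44% of all. The peaks of Cspg4 and Vcan that overlapped OPC H3K4me3, and the highest OPC peaks of Tnr and Cspg5 outside the shared places, had these sequences (GRCm38, plus strand, chr9:56869506-56869735, chr13:89738012-89738241, chr1:159492206-159492435 and chr9:110249807-110250036, CANNTG in capitals).
Cspg4, intron, on H3K4me3: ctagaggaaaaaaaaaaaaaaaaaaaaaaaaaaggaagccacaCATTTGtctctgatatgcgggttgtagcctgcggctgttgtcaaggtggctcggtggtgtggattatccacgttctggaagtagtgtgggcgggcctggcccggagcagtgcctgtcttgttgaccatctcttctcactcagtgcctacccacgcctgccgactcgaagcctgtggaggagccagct
Vcan, intron, on H3K4me3: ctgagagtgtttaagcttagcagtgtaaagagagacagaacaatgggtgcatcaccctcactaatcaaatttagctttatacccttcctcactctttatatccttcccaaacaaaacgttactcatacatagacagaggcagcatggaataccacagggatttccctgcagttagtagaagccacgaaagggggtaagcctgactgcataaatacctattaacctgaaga
Tnr, upstream: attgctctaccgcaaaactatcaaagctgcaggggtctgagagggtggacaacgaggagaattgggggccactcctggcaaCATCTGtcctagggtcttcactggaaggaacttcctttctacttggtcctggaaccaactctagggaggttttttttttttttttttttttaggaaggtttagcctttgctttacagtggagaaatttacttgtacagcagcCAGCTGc
Cspg5, intron: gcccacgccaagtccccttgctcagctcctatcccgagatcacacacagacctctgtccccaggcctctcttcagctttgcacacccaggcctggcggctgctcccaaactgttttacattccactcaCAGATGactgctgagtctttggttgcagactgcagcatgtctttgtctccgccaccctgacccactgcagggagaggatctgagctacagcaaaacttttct

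The Tnr peak was the only one of the set in OPCs with CAGCTG. Over the set, CAGCTG occurred in 1 of 18 OPC peaks (5.56%, exact 95% interval 0.141 to 27.3%) and in 0 of 35 NFO peaks (interval up to 10.0%), beside 13.6% and 10.1% of all. CAGATG or its reverse complement occurred in 5 OPC peaks (27.8%, 9.69 to 53.5%) and 8 NFO peaks (22.9%, 10.4 to 40.1%), beside 18.9% and 17.4% of all. CANNTG, which includes both, occurred in 61.1% (35.7 to 82.7%) and 68.6% (50.7 to 83.1%), beside 70.4% and 69.3% of all. The interval held the share of all peaks in 5 of these 6 cases, and for CAGCTG in NFOs it ended just under it. The intervals cover counting error only.

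Runs of A or T were common in the OLIG2 peaks, both at these genes and elsewhere. This was noticed in the printed sequences, such as the run of 26 at Cspg4 and of 22 at Tnr, and then counted. A run of at least 12 A or 12 T was held by 12 of the 18 OPC peaks of the set (66.7%, 41.0 to 86.7%) and 24 of the 35 NFO peaks (68.6%, 50.7 to 83.1%). Over all peaks the shares were 67.5% in OPCs and 65.8% in NFOs. In windows of the same width shifted by 2 kb to either side they were 3.59% and 3.55%, and beside the peaks of the set 0% and 4.29%. Peaks with higher fold held runs as well. Over all peaks with a fold above 20, the share was 65.5% in OPCs and 86.2% in NFOs. The OLIG2 libraries were made from few cells with the DNA SMART ChIP-Seq kit. Without the peaks that hold a run, 6 peaks at 5 genes remained in OPCs (Pdgfra, Lhfpl3, Vcan, Pcdh15 and Cspg5; 17.3% of all genes) and 11 peaks at 7 genes in NFOs (Pdgfra, Cspg4, Lhfpl3, Bcan, Pcdh15, Cspg5 and Tnr; 33.8% of all genes). Of the shared places the one at Pdgfra remained. Of the peaks on H3K4me3, the Vcan peak in OPCs remained and none in NFOs. The part of the runs in the OLIG2 peak calls was not tested.

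**Figure D4:**
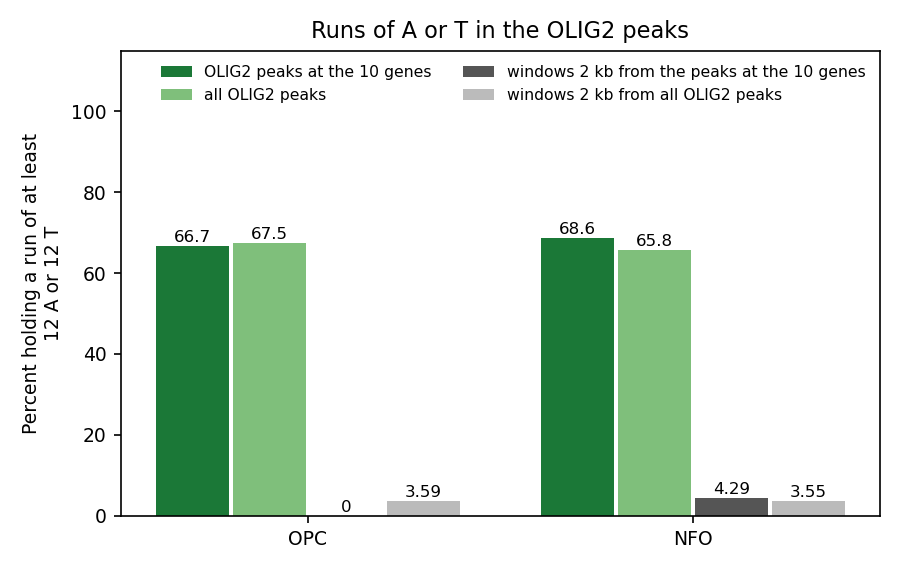
Percent of OLIG2 peaks and of windows of equal width 2 kb to either side that hold a run of at least 12 A or 12 T, in OPCs and NFOs, 1 library each. Bars start at 0. The peaks of the 10 genes (66.7% and 68.6%) and all peaks (67.5% and 65.8%) stand far above the windows beside them (0 to 4.29%).

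Positions of OLIG2 peaks in OPCs and NFOs also appeared in the H3K27me3 list of NSCs. At the set, 4 of 18 OPC peaks and 7 of 35 NFO peaks overlapped an NSC H3K27me3 peak, beside 15.2% and 15.8% of all OLIG2 peaks. All 4 of the former and 5 of the latter held a run of at least 12 A or 12 T. They include the peak upstream of Tnr.

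The RIP-Seq libraries listed no site on a transcript of the set. They hold 101310 sites for OLIG2 and 83195 for IgG. Protein-coding genes with a site made up 2.53% in the OLIG2 library and 2.56% in the IgG library, and 0 of the 10 genes had one in either. The lists give called sites alone.

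Genes that work with the set were described by lists fixed by name. The 13 genes of ligands and partners comprise the PDGF ligands, pleiotrophin and midkine, which bind PTPRZ1, link proteins and tenascin-C of the matrix, contactin, and binding partners of NG2 and protocadherin 15. In the order NSC, OPC and NFO, H3K4me3 near a TSS was listed for 12, 12 and 9 of them (64.3%, 60.8% and 43.6% of all protein-coding genes). H3K27me3 was listed for 2, 7 and 8 (15.1%, 16.4% and 9.58% of all), where the set had 2, 0 and 0 of 10. Bivalent promoters were listed for Pdgfb and Grip1 in NSCs (8.58% of all genes). In OPCs they were listed for Pdgfb, Hapln4, Tnc and Grip1 (5.45% of all) and in NFOs for Pdgfb, Tnc and Grip1 (2.91% of all). OLIG2 peaks within 50 kb were listed for 10 genes in OPCs (42.4% of all) and 10 in NFOs (65.1% of all). The only NFO peak at Hapln2 had the same fold as the only peak at Bcan, 2.35, under the study's filter. By the higher of the OPC and NFO values, the highest folds were at Hapln1, a link protein of hyaluronan (70.2 in OPCs and 43.3 in NFOs), Hapln4 (21.4 and 13.6), Pdgfb (20.0 and 11.1) and Grip1 (17.5 and 10.3).

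The 14 family relatives comprise receptors, lecticans, phosphatases, LHFPL proteins and auxiliary subunits of AMPA receptors related to genes of the set. Tnc stands in both lists. In the same order, H3K4me3 was listed for 10, 10 and 5 (64.3%, 60.8% and 43.6% of all genes). H3K27me3 was listed for 3 in each stage (15.1%, 16.4% and 9.58% of all). No relative was bivalent in NSCs (8.58% of all), Tnc and Lhfpl2 were in OPCs (5.45% of all) and Tnc was in NFOs (2.91% of all). OLIG2 peaks were listed for 9 in OPCs (42.4% of all) and 13 in NFOs (65.1% of all). Not all of these are separate places. The only NFO peak of Cacng5 had the fold of the upstream peak at Cacng4, 4.68, under the study's filter. Cacng7 and Cacng8 had the same highest NFO fold, 11.2. By the same measure the highest folds were at Kit, Ncan, Pdgfrb and Cacng2. Kit, the stem cell factor receptor near Pdgfra on chromosome 5, had 32.5 in OPCs and 19.8 in NFOs. Ncan, which encodes neurocan, had 21.4 and 13.6, with the highest peaks those counted for its neighbour Hapln4. For Pdgfrb there was none in OPCs and 18.4 in NFOs, the same fold as the highest at the microglial marker Csf1r. Cacng2 had 12.6 and 16.1. Pdgfrb had no H3K4me3 peak near a TSS in any stage and an H3K27me3 peak in OPCs (824 bp) and NFOs (828 bp), where Pdgfra had H3K4me3 alone.

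Of the 10 other OPC-enriched genes, 7, 8 and 8 had H3K4me3 (64.3%, 60.8% and 43.6% of all genes). H3K27me3 was listed for 2, 1 and 0 (15.1%, 16.4% and 9.58% of all). Sox10 and C1ql1 were bivalent in NSCs (8.58% of all) and none was later (5.45% of all in OPCs and 2.91% in NFOs). The H3K4me3 peak of Sox10, a transcription factor of the lineage, was 201, 6336 and 732 bp wide. In OPCs the peaks of Olig2 (8705 bp), Gpr17 (7223 bp) and the NSC marker Sox2 (8685 bp) were wider than all of the set but that of Pdgfra. The Xylt1 peak (6031 bp) was wider than all of the set but those of Pdgfra and Lhfpl3 (6332 bp). That of Sox10 lay between those of Lhfpl3 and Gpr17. OLIG2 peaks were listed for 4 of the 10 genes in OPCs (42.4% of all) and 7 in NFOs (65.1% of all), both close to the share of all genes. By that measure the highest folds were at Olig1 (20.5 and 10.6), Sox10 (none in OPCs and 17.7 in NFOs), Neu4 (none and 16.4) and Emid1 (none and 16.1).

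The genes most like Pdgfra over the 8 ChIP-Seq lists were sought by 16 percentile ranks, of covered bases and of the highest fold in each list. The nearest of all protein-coding genes were Dhx15, Mrps18b, Ppp1r10, Arl8a and Snx25, at distances of 18.1 to 25.6, beside a median of 160 over all genes. Mrps18b and Ppp1r10 are neighbours and share their highest OLIG2 peak, with a fold of 109 in OPCs and 112 in NFOs. None of the 5 is a gene of the set. Of the set, Ptprz1 (75.2), Cspg5 (76.5) and Cspg4 (79.0) came nearest, at ranks 1420, 1510 and 1661 of all genes, and Pcdh15 stood farthest (117).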

How the data were processed

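The series holds 13 samples with 1 library per group, and 10 have a processed file. The authors aligned ChIP-Seq reads with Bowtie2 (mm10) and used those that mapped once. Histone peaks were called with MACS2 in its broad mode, OLIG2 peaks with SPP, and blacklisted regions were dropped. The deposited lists give the fold enrichment, a ratio over the control, and the −log10 of the p-value and FDR from the authors' peak callers. They hold peaks under the study's filter (FDR below 0.05 and a fold above 3.5 for histone marks or 5 for OLIG2), and all listed peaks were used. The RIP-Seq lists from the authors' ASPeak run give a tag count, a p-value and an RPKM for each site as deposited. Read depths are not given in the sources used here.

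Genes and TSSs came from GENCODE M21 (GRCm38), and sequences and promoters from RefSeq GRCm38.p6. A gene was counted with a peak overlapping by at least 1 bp. Groups came from the sample titles. Members, lists and tests were chosen with earlier results of these data known. All 10 genes were named, with up to 4 genes of each list by OLIG2 fold, any bivalent gene behind a small count, and the 5 genes nearest Pdgfra. The measure of runs of A or T, and the values without peaks that hold them, were chosen after seeing the data. Some genes and sequences are not reported here. The overlap counts were tested on simulated data. Alternatives were the study's filter, stricter folds (5 or 10), 1 kb or the outermost TSS, 20 kb or the gene with 5 kb upstream, overlaps of 200 bp or 50%, and RIP p-values below 0.01 and 0.001. Matplotlib 3.10.9, pysam 0.24.0, SciPy 1.17.1, pandas 2.3.3 and NumPy 2.4.6 were run under Python 3.11.15.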

Additional observations from a re-analysis of the deposited data

How the results depend on the processing

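Of 154 values recomputed under other settings, 111 stayed within 1.5 times the reported count or within the interval of the reported share, and 43 moved. With a fold above 5, the genes with H3K4me3 in NFOs were 5 near a TSS and 6 in the gene, and H3K27me3 in NSCs was at 0 near a TSS, 3 in the gene and 0 bivalent, and in the gene at 0 in OPCs and 0 in NFOs. At 1 kb from a TSS, 1 gene had H3K27me3 and 1 was bivalent in NSCs. Without narrow NSC peaks that hold a run of A or T, both counts were 1. With an OLIG2 fold above 10, OPCs kept 3 genes and 4 peaks (1 gene and 2 peaks in the gene), of which 1 lay on H3K4me3, 75% held CAGATG and 100% CANNTG. NFOs kept 6 genes and 12 peaks (4 genes and 6 peaks in the gene), of which 1 lay on H3K4me3. The study's filter and 20 kb each left 1 NFO peak on H3K4me3. With 20 kb, or with the gene and 5 kb upstream, 1 place was shared and 0% of OPC peaks held CAGCTG, and the latter window left 20 NFO peaks with 1 on H3K4me3. Without OLIG2 peaks that hold a run, 5 genes and 6 peaks remained in OPCs (5 and 5 in the gene, 1 on H3K4me3, 0% with CAGCTG). In NFOs 11 peaks remained (4 genes and 6 peaks in the gene, 0 on H3K4me3, 9.09% with CAGATG), and 1 place was shared. Fewer peaks entered each of these settings by construction. No paired analysis was possible because each group has 1 library and the samples carry no replicate numbers. The lists give no read depth, so a mark that is not listed is not shown to be absent, and narrower H3K4me3 peaks at fewer genes in NFOs cannot be told apart from a shallower library.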

Other observations

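Narrow H3K4me3 peaks stood at nearly the same place in OPCs and NFOs inside genes of the set. In Cspg4 the 222-bp OPC peak and the 186-bp NFO peak had folds of 4.92 and 3.62. Both began at the same base 4.5 kb after the outermost TSS, directly after the run of 26 A in the OPC OLIG2 peak there. Within the 2 H3K4me3 peaks themselves no run of more than 3 A or T was held. The part of the adjoining run in these calls was not tested. In Tnr a 181-bp OPC peak (fold 4.25) and a 194-bp NFO peak (fold 4.74) ended at the same base 4133 bp after the TSS. Of the 2 Cspg5 peaks near a TSS, the downstream one had the higher OPC fold, at 8.26 beside 3.97 at the upstream one. In NSCs the order was the other way, at 3.86 and 6.34. The downstream peak lay past the last annotated TSS.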
